A study of Mus musculus with 4 samples.

Results

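Tumour cells of the mouse intestine that lacked Lgr5 were divided by a tuft cell surface marker, and the array of Lgr5- tuft marker+ cells was set against the array of Lgr5- tuft marker- cells. Of 22911 genes named on the array, 17889 were well above background on at least 1 of these arrays and make up the comparison (18655 genes were above background on any of the 4 arrays of the study). A gene could enter through the array where it was high. Every level is a log2 intensity with the 75th percentile of its array set to 0, and every difference is tuft marker+ minus tuft marker-.

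Both populations were sorted as EpCAM+ epithelial cells from intestinal tumours, and markers of other cell types on their arrays are given below. The mice carried Lgr5CreERT2/+ together with Ctnnb1lox(ex3)/ox(ex3) and were sampled 14 days after tamoxifen. CreERT2 is a recombinase that tamoxifen switches on, here expressed from the locus of Lgr5, the receptor that marks intestinal stem cells. Ctnnb1 encodes β-catenin, the effector of Wnt signalling, and loss of its exon 3 removes the sites through which the protein is marked for breakdown. Whether every Lgr5- cell descended from a recombined stem cell is not given in the labels, nor is the number of mice or the part of the intestine. The marker is IL17RB, a receptor for the cytokine IL-25, and the same marker also split the Lgr5+ cells. Each of the 4 populations was measured on 1 one-colour Agilent array from 13 ng of total RNA, so no difference has a replicate check and no difference was tested; the error given with a difference is the scanner's own error for the spots.

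Tuft cells, scarce sensory cells of the gut epithelium, use the signalling chain of taste cells, from G proteins through the phospholipase PLCB2 to the channel TRPM5. Their formation depends on the transcription factor POU2F3. They release IL-25, leukotrienes, prostaglandins and acetylcholine, and by these signals they take part in type 2 immunity and speak to nerves. Cells that carry the tuft marker DCLK1 have been described as long-lived or stem-like cells in intestinal tumours of mice.

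All 4 arrays lay on 1 slide and came from 1 scan. Of 59305 non-control spots, 60.2% to 69.0% were well above background and none was saturated. In the Lgr5- pair, 15195 genes were above background on both arrays, 1948 on the tuft marker+ array alone and 746 on the tuft marker- array alone. Where the dimmer side lay at the lowest signal the array could measure, the difference is a lower limit and is written as at least so much, with no error (2772 genes). The scanner error of a log2 difference had a median of 0.21, and the SD between probes of the same gene had a median of 0.45 over 5754 genes with more than 1 probe above background. A gene is given by its brightest probe; of 298 genes 2-fold apart that the naming rule chose, 108 had more than 1 probe above background, and in 43 of these at least 1 probe was under 2-fold or turned the other way. Array intensity does not tell fewer cells of a type from less RNA per cell.

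Tuft marker+ cells had more genes at high excess than tuft marker- cells. At least 2-fold higher were 2959 genes (16.5% of those compared) and at least 2-fold lower were 2198 (12.3%), so that 28.8% lay 2-fold apart either way and 57.4% of these were higher. At 4-fold the counts were 777 higher and 187 lower, and at 16-fold 135 higher and 1 lower. The split between higher and lower followed the scaling: higher genes made up 37.3% when arrays were scaled to the median spot (2043 higher, 3435 lower) and 79.5% in the authors' deposited value table (4475 higher, 1154 lower), and 66.3% when the percentile was taken over probes detected on all arrays. These scalings moved the median difference of all genes, 0.08 here, to -0.15, 0.38 and 0.20, and each group of genes below is to be read against such a shift. Each count within a list is likewise to be read against the 16.5% and 12.3% of all genes. With both arrays required to be above background, 2075 genes were higher and 1931 lower, and higher genes made up 51.8%. In the Lgr5+ cells the same sort gave fewer genes, with 10.4% of 17466 genes 2-fold higher, 8.14% lower and 18.6% either way.

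**Figure D1:**
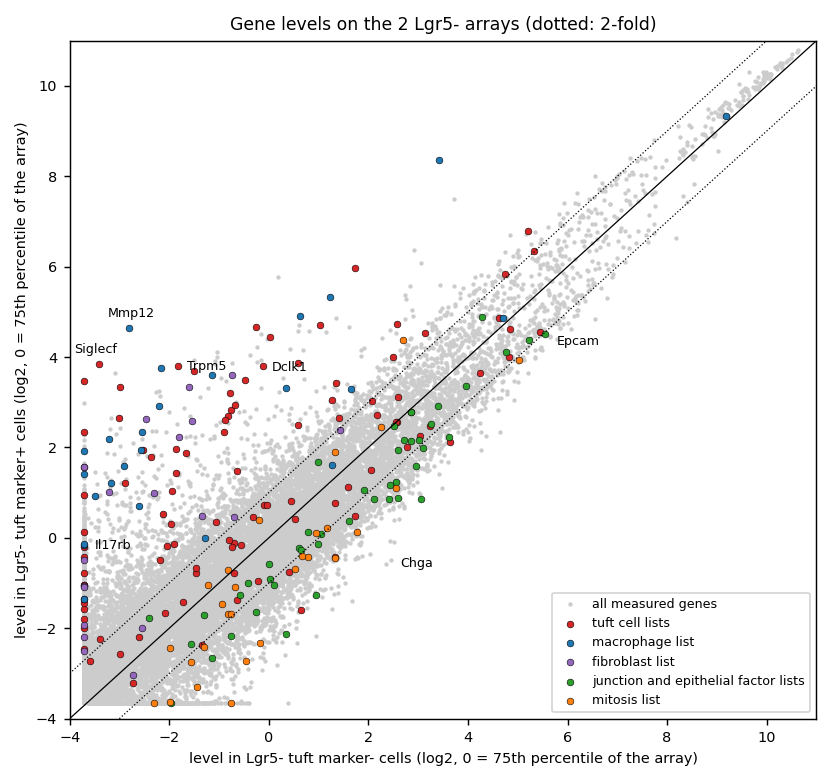
Level of each of 17889 genes in Lgr5- tuft marker- cells (x axis) and Lgr5- tuft marker+ cells (y axis), both as log2 intensity with the 75th percentile of the array at 0. Grey points are all genes, coloured points members of gene lists, dotted lines 2-fold differences. Tuft, macrophage and fibroblast genes lie mostly above the upper line, reaching Mmp12 at a difference of 7.45, while junction, epithelial factor and mitosis genes lie mostly below the diagonal, with Epcam at -1.04; the row at the left edge and at the bottom holds genes at the floor of an array.

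The genes that marked the sort went with the labels. Il17rb, the gene of the sorted receptor, had a level of 0.12 in tuft marker+ cells and was not well above background in tuft marker- cells, a difference of at least 3.83 (at least 14.2-fold), and its other probe gave 2.47. Dclk1, a kinase of microtubules and the usual tuft cell marker, stood at 3.81 against -0.12, a difference of 3.93 ± 0.21 (15.2-fold), and each of its 4 probes was higher, by 3.93 to 5.01. Trpm5, the cation channel of taste transduction, stood at 3.80 against -1.83, a difference of 5.63 ± 0.22 (49.6-fold). Lgr5 itself was not well above background in tuft marker+ cells and at -3.19 in tuft marker- cells, near the floor of -3.71, while the Lgr5+ arrays had levels of -0.78 and -0.80. Epcam, the adhesion protein by which all the cells were sorted, was present on both sides at 4.52 and 5.56, and so 2.06-fold lower in the tuft marker+ cells. Ctnnb1 stood at 4.38 against 5.23, a difference of -0.84 ± 0.20, and its other probe gave -1.74.

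Markers of other cell types moved with the sort as well, and they stand beside every tuft result here. Of 8 macrophage markers, 8 were 2-fold higher in tuft marker+ cells, and their summed intensity, in units of the 75th percentile, was 75.6 against 6.74. Of 6 fibroblast markers, 6 were higher, with a sum of 27.9 against 1.36, and Dcn, Pdgfra and Lum were not above background in the tuft marker- cells. The tuft markers themselves gave 53.2 against 3.78, with 7 of 9 measured higher. Among T and NK cell markers 3 of 5 measured were higher (sum 11.5 against 5.51), and among B and plasma cell markers 1 of 3. Of 5 ILC2 markers 3 were higher (sum 4.49 against 1.38), of 3 neutrophil markers measured 2 and of 4 dendritic cell markers 1. Of the endothelial markers Kdr and Tek were not above background on either array, and 1 of the 2 measured was higher. Of the mast cell markers Cpa3, Mcpt1 and Mcpt2 were not above background, and neither of the 2 measured was 2-fold higher. Of 7 epithelial markers 1 was higher and 2 lower, with a median of -0.54. Their sum was 201 against 179, of which Krt18, a keratin also in a tuft list, gave 110.1 and 36.8; without it, left out after its level was seen, the sum was 90.4 against 142. What part the macrophage and fibroblast RNA had in the tuft gene differences was not tested.

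Over 5 lists of tuft cell genes, counted without repeats, 59 of 102 measured genes were 2-fold higher (57.8%, against 16.5% of all genes) and 6 lower (5.88%, against 12.3%), with a median difference of 1.55 against 0.08 for all genes. Among these 102, 37 genes are known in blood cells too, by a division made after the values were seen; 29 of them were higher, with a median of 2.93. Of the other 65 genes 30 were higher and 6 lower, with a median of 0.79. The division was made by hand, and these 65 may still hold genes that blood cells use. In the Lgr5+ cells the same lists gave 54 of 98 higher and a median of 1.13.

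The chain of taste signalling was high at its phospholipase and channel and varied at its receptors. Of 18 measured genes 10 were higher (55.6%, against 16.5% of all genes) and 1 lower (5.56%, against 12.3%). Their median was 1.58 (0.55 to 1.94 over the alternatives of processing). Plcb2, the phospholipase, stood at 2.66 against -3.01, a difference of 5.66 ± 0.29 (50.7-fold), though its 3 probes ranged from 0.65 to 5.66. Itpr2, a calcium channel of internal stores, was higher by 4.09 ± 0.30 and by 1.13 with its other probe, and Rgs2 and Rgs13, which shorten G protein signals, by 3.98 ± 0.21 and 2.98 ± 0.23. The G protein subunits Gnat3, also called gustducin, and Gng13 were not above background in the tuft marker- cells and were higher by at least 1.92 and at least 2.13. Gnb1, a subunit in general use, was lower by 1.51 on the log2 scale. The taste receptor subunits Tas1r1 and Tas1r3 differed by 0.41 ± 0.27 and -0.08 ± 0.21, both under 2-fold.

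**Figure D2:**
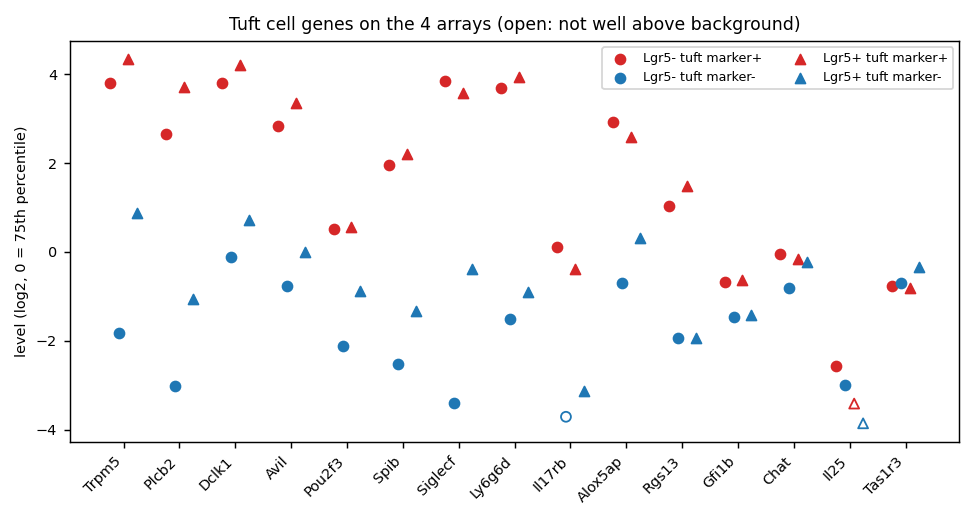
Levels of 15 tuft cell genes on the 4 arrays, as log2 intensity with the 75th percentile at 0; circles are Lgr5- cells, triangles Lgr5+ cells, red tuft marker+, blue tuft marker-, and open symbols are not well above background. From Trpm5 to Rgs13 both red symbols lie above both blue ones, as for Trpm5 at 3.80 and 4.35 against -1.83 and 0.88, while Chat, Il25 and Tas1r3 lie close together or at the floor.

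Among tuft cell transcription factors 8 of 19 were higher (42.1%, against 16.5% of all genes) and 3 lower (15.8%, against 12.3%). The median was 0.54 (0.24 to 0.84). Spib, an ETS factor of tuft cells and of B cells, stood at 1.95 against -2.52, a difference of 4.47 ± 0.26 (22.2-fold). Pou2f3, the factor that specifies tuft cells, stood at 0.53 against -2.12, a difference of 2.65 ± 0.23 (6.28-fold), and its other probe gave 3.52. Id2 and Nfatc1 followed at 2.28 ± 0.23 and 2.12 ± 0.21 (0.77 by the other probe of Nfatc1), and the homeobox genes Hmx3 and Hmx2 at 1.76 ± 0.23 and 1.71 ± 0.24. Gfi1b, a repressor used as a tuft marker, differed by 0.79 ± 0.23, under 2-fold in both pairs. Lower were Myb (-1.75 ± 0.21), Nfib (-1.26 ± 0.21) and Ascl2 (-1.03 ± 0.25), of which Ascl2 is a stem cell factor and Myb a factor of dividing progenitors. Sox9, present in stem, Paneth and tuft cells, was level at 2.55 and 2.58.

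Of the cytoskeleton and microvillus genes 8 of 18 were higher (44.4%, against 16.5% of all genes) and 1 lower (5.56%, against 12.3%). Their median was 0.88 (0.49 to 1.17). Tuba1a, an α-tubulin, stood at 5.97 against 1.72, a difference of 4.24 ± 0.20. Avil, the actin-bundling protein advillin of the tuft, stood at 2.83 against -0.76, a difference of 3.59 ± 0.21 (12.0-fold). Kctd12, an auxiliary subunit of GABA-B receptors that is abundant in tuft cells, was higher by 3.98 ± 0.21, and the keratin gene Krt18 by 1.58 ± 0.20. Sh3bgrl2 was the lower member, at -1.15 ± 0.21. Vil1 and Ezr, the villin and ezrin of brush borders in general, differed by -0.54 ± 0.20 and -0.78 ± 0.20.

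Surface and SH2-domain signalling genes were the tuft list with the highest median, 3.28 (1.68 to 3.58), and 25 of 29 were higher and none lower. Siglecf, a sialic acid receptor of tuft cells and eosinophils, stood at 3.85 against -3.41, a difference of 7.26 ± 0.32 (153-fold), which both of its probes showed. Ptprc, which encodes CD45, stood at 3.33 against -2.99, a difference of 6.32 ± 0.28 (80.0-fold), with 2.88 by its other probe; it is the common leukocyte antigen and is also described on tuft cells. Gprc5c was at least 66.7-fold higher by its brightest probe, whereas its other probe gave a log2 difference of 1.41. Ly6g6d, a small GPI-anchored protein, stood at 3.69 against -1.50, a difference of 5.19 ± 0.22 (36.6-fold). Vav1, a guanine nucleotide exchange factor, was higher by 4.92 ± 0.21. The receptors for type 2 cytokines differed less, with Il4ra at 1.03 ± 0.20 (0.15 by its other probe), Il13ra1 at -0.10 ± 0.21, and Stat6, the factor they activate, at -0.57 ± 0.20.

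The effector genes of tuft cells were divided. Leukotriene genes were high, with Alox5, the 5-lipoxygenase, at a level of 0.94 and not above background in tuft marker- cells (at least 25.0-fold) and its helper Alox5ap at 2.94 against -0.69, a difference of 3.62 ± 0.21. Of the prostaglandin genes, Ptgs1 was at least 11.4-fold and Hpgds at least 7.62-fold higher, and Ptgs2, the inducible cyclooxygenase, was higher by 3.31 ± 0.22. All of these leukotriene and prostaglandin genes are among the 37 known in blood cells too. Macrophage markers summed to 75.6 against 6.74 on the same arrays, and which cells gave this RNA was not tested. Chat, which makes acetylcholine, stood at -0.04 against -0.81, a difference of 0.76 ± 0.21, but its 3 probes ranged from 0.21 to 1.58, on both sides of 2-fold. Il25, the cytokine of tuft cells, stood at -2.57 against -2.98, a difference of 0.41 ± 0.34, and was not above background on either Lgr5+ array. The list had 8 of 18 genes higher and 1 lower, with a median of 0.76 (0.43 to 1.06). In the wider eicosanoid list, 11 of 19 were higher and 1 lower, with a median of 1.25 (0.65 to 1.54), led by the phospholipase Pla2g7 at 5.45 ± 0.23 (3.58 by its lowest probe), and Ptges2 was lower at -1.09 ± 0.22. Of the IL-17 receptor pathway, by contrast, 4 of 16 genes were higher, with Tnfaip3 at 2.57 ± 0.21, Cebpb at 2.28 ± 0.20 and Il17ra at 1.13 ± 0.20 beside Il17rb, and the adaptor Traf3ip2 was lower at -1.11 ± 0.26; the median was 0.09 and changed sign between alternatives (-0.19 to 0.38).

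Promoter sequences were searched for the octamer ATGCAAAT, the motif of POU factors such as POU2F3, on both strands from 250 bases before to 50 after each start of transcription in RefSeq (GRCm38.p6). Of 81 measured tuft list genes with a promoter, 6 held it (7.41%), against 252 of 14154 measured genes (1.78%) and 1.74% of all 32851 windows. It was also held by 1 of 17 macrophage genes (5.88%), by none of 19 enterocyte genes and by 2 of 10 epithelial transcription factor genes (20.0%), a list with no gene 2-fold higher. Genes 2-fold higher held it in 2.10% and genes 2-fold lower in 1.88%. The 250 bases before the start are shown for the 4 of these 6 genes that were 2-fold higher, 5′ to 3′ on the gene's strand, with the octamer or its reverse complement in capitals, because they are the tuft list genes with both the motif and a 2-fold higher value. The others were Tas2r108 and Itpr3, which differed by at least 0.85 and by -0.47 ± 0.20.
Ly6g6d, chr17:35081240-35081489, minus strand: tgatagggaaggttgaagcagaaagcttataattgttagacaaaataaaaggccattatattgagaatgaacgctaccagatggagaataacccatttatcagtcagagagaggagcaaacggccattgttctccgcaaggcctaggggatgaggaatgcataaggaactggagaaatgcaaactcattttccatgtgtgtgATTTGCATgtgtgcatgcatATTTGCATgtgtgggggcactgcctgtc
Kctd12, chr14:102982638-102982887, minus strand: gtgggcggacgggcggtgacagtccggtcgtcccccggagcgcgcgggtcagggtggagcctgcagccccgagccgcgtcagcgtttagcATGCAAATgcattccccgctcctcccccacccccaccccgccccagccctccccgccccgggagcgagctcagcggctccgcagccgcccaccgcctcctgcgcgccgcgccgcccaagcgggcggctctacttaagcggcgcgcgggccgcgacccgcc
Hpgds, chr6:65144731-65144980, minus strand: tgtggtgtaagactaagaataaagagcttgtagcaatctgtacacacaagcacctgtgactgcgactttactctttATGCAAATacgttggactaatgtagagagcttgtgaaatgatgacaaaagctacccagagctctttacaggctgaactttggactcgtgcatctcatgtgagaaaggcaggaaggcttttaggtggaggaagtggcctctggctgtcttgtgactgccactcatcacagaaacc
Il4ra, chr7:125552021-125552270, plus strand: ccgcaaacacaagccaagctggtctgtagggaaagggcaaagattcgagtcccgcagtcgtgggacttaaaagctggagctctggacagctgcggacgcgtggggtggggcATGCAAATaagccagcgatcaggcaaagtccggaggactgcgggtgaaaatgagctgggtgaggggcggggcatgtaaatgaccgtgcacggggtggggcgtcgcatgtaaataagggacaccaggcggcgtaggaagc
In Ly6g6d the octamer occurs at 2 places, beginning 48 and 28 bases before the start, and this gene had the largest difference of the 6. In Kctd12, Hpgds and Il4ra it begins 160, 174 and 139 bases before the start. A match is a description of the letters and not a measured binding site.

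Macrophage genes made up the list with the highest median of all 61, at 4.38 (2.59 to 4.68). Of 25 genes 22 were higher (88.0%, against 16.5% of all genes) and none lower. Mmp12, the macrophage elastase, had the largest measured difference of any gene: its level was 4.64 against -2.81, a difference of 7.45 ± 0.29 (174-fold), though its 3 probes ranged from 1.04 to 7.45. C1qc, a chain of complement C1q, stood at 3.75 against -2.17, a difference of 5.92 ± 0.23 (60.6-fold). Spp1, osteopontin, stood at 1.92 and was not above background in the tuft marker- cells (at least 49.5-fold), and Trem2, a lipid receptor of macrophages, stood at 2.19 against -3.20, a difference of 5.40 ± 0.31. Adgre1, the F4/80 antigen, was higher by 5.11 ± 0.24 (2.64 by its other probe) and Apoe by 4.93 ± 0.20. Csf1r, the receptor for the macrophage growth factor, was level at 4.87 against 4.71 by its brighter probe, whereas its other probe was higher by 3.45; Itgam likewise differed by 0.15 ± 0.20 and by 1.25. In the Lgr5+ pair 20 of 25 macrophage genes were 2-fold higher, with a median of 3.12.

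Gene groups that macrophages and other phagocytes use were also high. Of Fc receptor and ITAM signalling genes 18 of 19 were higher and 1 lower, with a median of 3.55 (2.45 to 3.85), among them Sirpa, an inhibitory receptor, at 5.14 ± 0.21 and Lilrb4a at 4.50 ± 0.21; the adaptor Blnk was the lower member at -1.21 ± 0.21. Complement genes were higher in 15 of 19 and lower in none, with a median of 1.80 (1.33 to 2.10), led after C1qc by the anaphylatoxin receptors C3ar1 (5.44 ± 0.22) and C5ar1 (4.27 ± 0.22). Of lysosomal genes 19 of 22 were higher, with a median of 1.64 (1.29 to 1.94), and the cathepsin Ctss stood at 7.49 against 3.71, a difference of 3.78 ± 0.20. Chemokines and their receptors were higher in 21 of 29 and lower in none, with a median of 1.68 (0.87 to 2.57), with Ccl8 at 5.60 ± 0.32 and Cxcr4 at 4.94 ± 0.21 (4.02 by its other probe). Class II antigen presentation genes were higher in 6 of 10, with H2-Eb1 at 2.02 ± 0.20 and H2-Aa at 1.61 ± 0.20 and a median of 1.35 (1.11 to 1.64). Leukocyte cytoskeleton genes were higher in 13 of 23 and lower in 2, with a median of 1.98 (0.79 to 2.39); Arhgap45 was at least 48.5-fold higher by its brightest probe (log2 difference 1.86 by the other), Nckap1l at 5.32 ± 0.23 (2.39 by the other) and the moesin gene Msn at 5.06 ± 0.21, while Wipf1 was lower at -1.36 ± 0.21 by its brightest probe and higher at 0.34 by the mean of its probes.

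The PU.1 motif GAGGAAGT, an ETS site used by macrophages and B cells, was searched in the same windows and on both strands. It was held by 126 of 2288 genes 2-fold higher (5.51%), by 50 of 1751 genes 2-fold lower (2.86%) and by 522 of 14154 measured genes (3.69%). Among genes 4-fold higher it was held by 56 of 603 (9.29%), among genes 4-fold lower by 4 of 143 (2.80%), and by 3.20% of all windows. In the macrophage list 3 of 17 genes with a promoter held it, in the tuft lists 8 of 81 (9.88%), in the epithelial transcription factor list, with no gene 2-fold higher, 2 of 10 (20.0%), and in the enterocyte list none of 19. The motif of HNF4, CAAAGTCCA, was held by 0.699% of the higher genes, 0.685% of the lower genes and 0.593% of measured genes. At 4-fold it was held by 4 of 603 higher genes (0.663%) and 2 of 143 lower genes (1.40%), and in the lists by 3 of 19 enterocyte genes (15.8%), 1 of 17 macrophage genes (5.88%) and none of the tuft or epithelial transcription factor genes. Spi1, which encodes PU.1, was at -0.14 in tuft marker+ cells and not above background in tuft marker- cells, at least 11.8-fold apart. Spib, the ETS factor of tuft cells and of B cells, was also higher, by 4.47. Which factor, if any, acts on these sites, and in which cells, was not tested. The promoters of 3 macrophage genes with the motif are shown, chosen after their values were seen, with the motif or its reverse complement in capitals.
Mmp12, chr9:7344147-7344396, plus strand: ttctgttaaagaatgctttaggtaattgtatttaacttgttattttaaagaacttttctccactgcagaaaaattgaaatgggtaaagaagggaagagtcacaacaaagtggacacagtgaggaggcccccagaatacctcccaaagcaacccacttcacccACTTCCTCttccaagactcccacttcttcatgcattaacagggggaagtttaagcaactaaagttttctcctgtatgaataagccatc
C1qc, chr4:136892915-136893164, minus strand: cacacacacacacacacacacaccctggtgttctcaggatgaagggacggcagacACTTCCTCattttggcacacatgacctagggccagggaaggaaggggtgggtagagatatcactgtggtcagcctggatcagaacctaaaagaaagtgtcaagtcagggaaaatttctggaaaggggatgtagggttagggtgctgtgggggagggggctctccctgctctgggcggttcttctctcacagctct
Spp1, chr5:104434861-104435110, plus strand: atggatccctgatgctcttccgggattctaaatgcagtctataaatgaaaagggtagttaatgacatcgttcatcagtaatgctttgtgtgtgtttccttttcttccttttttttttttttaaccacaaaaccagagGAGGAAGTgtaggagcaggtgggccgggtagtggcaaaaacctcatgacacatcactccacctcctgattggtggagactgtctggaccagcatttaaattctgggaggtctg
The motif begins 88, 195 and 113 bases before the start in these genes, whose differences were 7.45, 5.92 and at least 5.63.

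Other non-epithelial lists, of stroma and of other blood cells, varied in their share of higher genes. Their counts stand beside 16.5% of all genes 2-fold higher and 12.3% lower. Fibroblast genes were higher in 16 of 19 and lower in none, with a median of 2.64 that varied with the processing (1.13 to 3.91); 7 of the 19 differences are lower limits. Dcn, the matrix proteoglycan decorin, stood at 1.56 and was not above background in tuft marker- cells (at least 38.5-fold), and the collagen genes Col3a1, Col1a2 and Col1a1 were higher by 4.94 ± 0.22, 4.33 ± 0.21 and 3.30 ± 0.08 (5.45 by the other probe of Col1a1). Vim, the intermediate filament of mesenchyme and leukocytes, was higher by 5.09 ± 0.24. T and NK cell genes were higher in 7 of 17 with a median of 0.94 (0.47 to 1.24), with Il2rb at 2.52 ± 0.27 and Cd4 at 1.38 ± 0.20 (0.60 by its other probe), whereas Cd8a differed by 0.15 ± 0.33. Within the Lgr5+ cells their median was -0.29. B and plasma cell genes were higher in 5 of 10, with a median of 1.11 (0.43 to 1.40), led by Jchain at 4.07 ± 0.35, the joining chain of secreted antibody, and Pax5 differed by -0.61 ± 0.21. Endothelial genes were higher in 6 of 11 and lower in 1, with a median of 1.13 (0.16 to 1.43) and Pecam1 at 1.96 ± 0.24; in the Lgr5+ cells their median was -0.40. Neutrophil genes were higher in 4 of 10, dendritic cell genes in 5 of 12, led by Itgax at least 24.4-fold (log2 difference 3.12 by its other probe), and mast cell and ILC2 genes in 6 of 14 with 1 lower, led by Il7r at 3.44 ± 0.35; their medians were 0.66, 0.83 and 0.83. Of the muscle and pericyte genes 3 of 12 were higher (25.0%, not far from 16.5% of all genes), with a median of 0.18. Of the enteric glia and neuron genes none of 6 was higher.

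**Figure D3:**
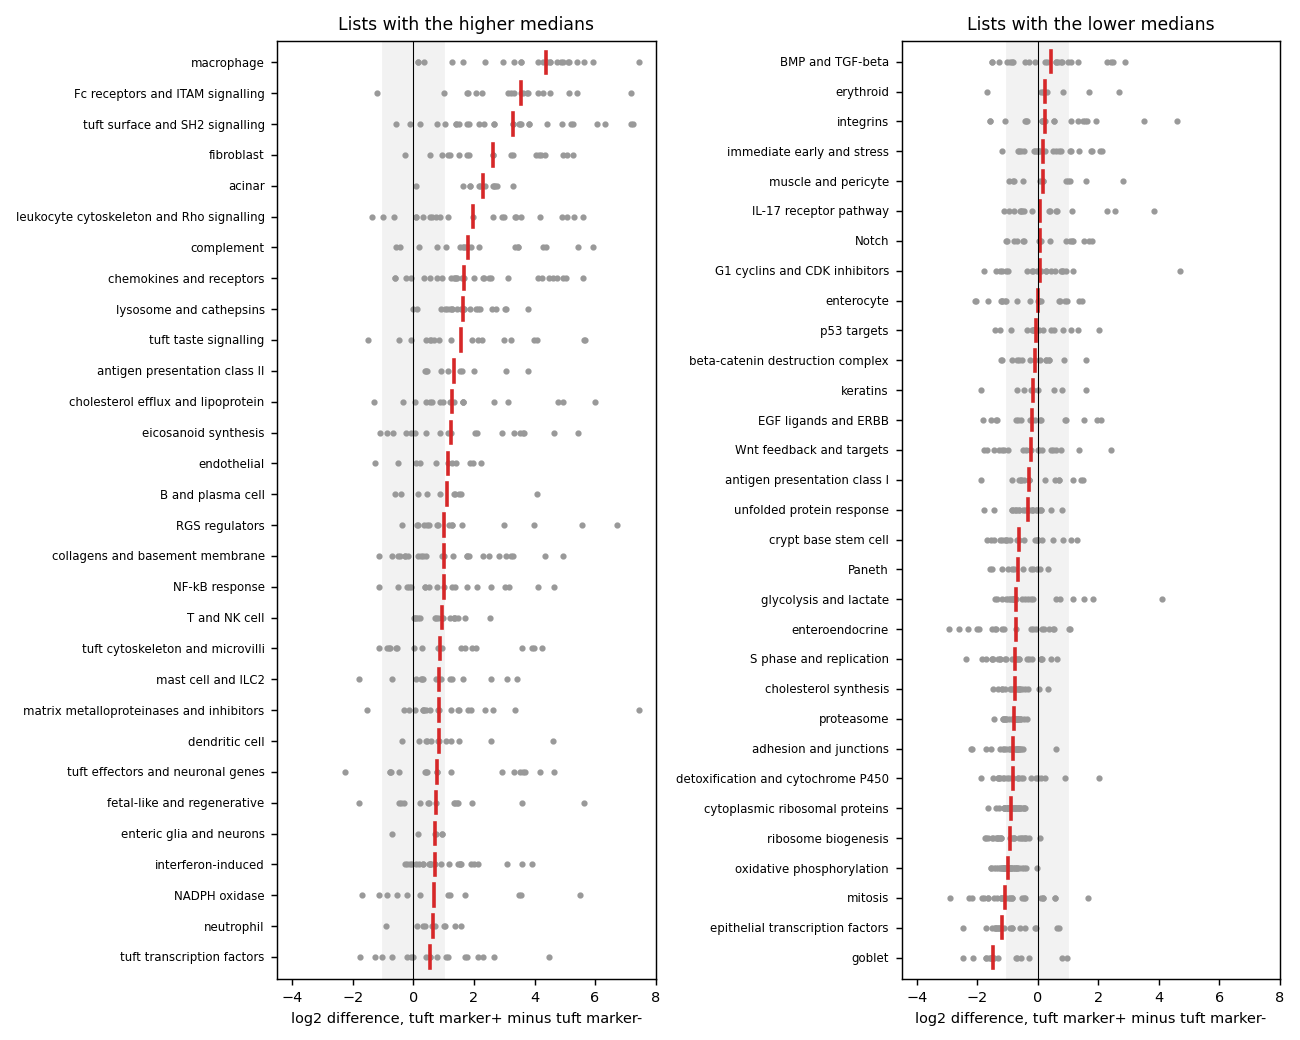
Log2 difference, tuft marker+ minus tuft marker-, in Lgr5- cells for the measured members of 61 gene lists (x axis; grey points are genes, red bars list medians, the shaded band is under 2-fold). The macrophage list leads with a median of 4.38, tuft lists lie between 0.54 and 3.28, and the goblet list lies lowest at -1.48.

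Genes of epithelial structure and identity were lower in tuft marker+ cells. Of 24 adhesion and junction genes 8 were 2-fold lower and none higher, with a median of -0.81 (-1.05 to -0.52), and 23 of 24 lay below 0. Ocln, a tight junction protein, stood at -1.27 against 0.94, a difference of -2.21 ± 0.21, and the claudins Cldn2 and Cldn4 differed by -2.19 ± 0.20 (-2.87 by the other probe of Cldn2) and -1.55 ± 0.20. Cdh17, an intestinal cadherin, differed by -1.71 ± 0.20 and Cdh1, E-cadherin, by -0.93 ± 0.21. Of 20 epithelial transcription factors 11 were lower and none higher, with a median of -1.18 (-1.42 to -0.71). Foxa3 stood at -2.12 against 0.34, a difference of -2.46 ± 0.23, Nr5a2 was not above background in tuft marker+ cells and at least 3.24-fold lower, and Hnf4g and Hnf4a differed by -1.41 ± 0.24 and -1.31 ± 0.20. Keratins showed no common direction: Krt18 was higher at 1.58 ± 0.20, Krt19 lower at -1.88 ± 0.20, and Krt8 level at 5.10 on both arrays.

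Goblet, enteroendocrine and Paneth cell genes lay below the levels of tuft marker- cells in the main. Among all genes 12.3% were 2-fold lower and 16.5% higher. Of 17 goblet cell genes 11 were lower and none higher, with a median of -1.48 (-1.71 to -1.18): the mucin Muc2 stood at 1.34 against 2.82, Fcgbp at 4.85 against 6.55 and Retnlb at -0.78 against 1.37, differences of -1.48 ± 0.20, -1.71 ± 0.20 and -2.15 ± 0.21, with -2.64 by the other probe of Muc2. Of 21 enteroendocrine genes 10 were lower and 2 higher, with a median of -0.72 (-1.17 to -0.23). Chga and Chgb, the chromogranins of hormone granules, stood at -0.48 against 2.45 and at 1.95 against 4.26, and the hormone gene Cck at -1.22 against 1.39, a difference of -2.62 ± 0.07. Neurod1 was not above background in tuft marker+ cells. The factors Isl1 and Fev were higher, at 1.05 ± 0.34 and 1.02 ± 0.20. Paneth cell genes were lower in 3 of 12 and higher in none, with a median of -0.64 (-0.88 to -0.35), among them the matrilysin gene Mmp7 at -1.53 ± 0.20, while the defensin gene Defa21 differed by 0.33 ± 0.20. Enterocyte genes were split, 2 of 21 higher and 8 lower, with a median of 0.01 that changed sign between alternatives (-0.22 to 0.31). The digestive enzymes Mgam, Sis and Alpi differed by -2.07 ± 0.20, -1.63 ± 0.21 and -1.23 ± 0.20, and the apolipoprotein Apoc3 by 1.48 ± 0.21, with 3 probes from 0.92 to 2.60.

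Crypt base stem cell genes and Wnt feedback genes were also more often lower than higher. Of 21 crypt base stem cell genes 8 were lower and 2 higher, with a median of -0.63 (-0.86 to -0.19). Rnf43, which removes Wnt receptors and is itself a Wnt target, differed by -1.67 ± 0.21, Lrig1 by -1.53 ± 0.21 (-2.35 by its other probe), and Axin2, the common readout of β-catenin activity, stood at -1.20 against 0.25, a difference of -1.45 ± 0.21. Aqp4 and Clca4a were higher at 1.30 ± 0.20 and 1.10 ± 0.20, the first of them with probes from -1.24 to 1.30. Of 20 Wnt feedback genes and targets 6 were lower and 2 higher, and the median of -0.23 changed sign between alternatives (-0.47 to 0.06). Ccnd1, cyclin D1, differed by -1.79 ± 0.20, Dkk3 by 2.42 ± 0.35, and Myc was level at 3.96 and 3.93 by its brighter probe, while its other probe gave -1.03. Of the 15 members of the β-catenin destruction complex list 1 was higher, Btrc at 1.59 ± 0.21 (0.53 by its other probe), and 2 lower, Amer1 at -1.20 ± 0.22 and Gsk3a at -1.19 ± 0.21 (-0.47 by its other probe). These shares, 6.67% and 13.3%, stand beside 16.5% and 12.3% of all genes and give no result for the list.

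Genes of cell division were lower, read against 12.3% of all genes 2-fold lower and 16.5% higher. Of 28 mitosis genes 15 were lower and 1 higher, with a median of -1.08 (-1.31 to -0.45). Cdc25c was not above background in tuft marker+ cells and at least 7.43-fold lower, Kif11 and Ccnb1 differed by -2.27 ± 0.27 and -2.17 ± 0.25, the 3 probes of Ccnb1 ranging from -2.17 to -0.06, and Mki67 stood at 1.10 against 2.55, a difference of -1.45 ± 0.20. Nek2, a kinase of the centrosome, had the lowest measured difference of any gene, -2.16 against 0.94 (-3.10 ± 0.24). Aurkb was the higher member at 1.67 ± 0.20 by its brighter probe, but its other probe gave -1.85 and the mean of its probes -0.090. Of 25 S phase genes 11 were lower and none higher, with a median of -0.74 (-0.97 to -0.45), among them Pole, at least 5.18-fold lower, and Mcm2 at -1.83 ± 0.30. Cdkn1c, the cell cycle inhibitor p57, stood at 1.43 against -3.29, a difference of 4.72 ± 0.32 (26.3-fold). Its list, G1 cyclins and CDK inhibitors, did not follow it. Of 22 genes 2 were higher (9.09%) and 5 lower (22.7%), with a median of 0.07 that changed sign between alternatives (-0.16 to 0.37). Cdkn2b, another inhibitor, was lower at -1.38 ± 0.21. In the Lgr5+ pair, where 8.14% of all genes were lower, 4 of 28 mitosis genes were lower and none higher, with a median of -0.35.

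Genes of respiration, ribosomes, the proteasome and cholesterol synthesis were lower, and those of cholesterol efflux higher. The counts stand beside 12.3% of all genes 2-fold lower and 16.5% higher. With the scaling used here all 34 oxidative phosphorylation genes lay below 0, the highest at -0.04. Of them 16 were 2-fold lower, with a median of -0.99 (-1.23 to -0.70). Atp5b, the β subunit of ATP synthase, stood at 3.45 against 5.0, a difference of -1.55 ± 0.20. All 37 cytoplasmic ribosomal protein genes lay below 0 and 9 were 2-fold lower, with a median of -0.88 (-1.11 to -0.53) and Rps14 lowest at -1.65 ± 0.06. Ribosome biogenesis genes were lower in 12 of 25 (median -0.92, -1.15 to -0.62) and proteasome genes in 7 of 26 (median -0.79, -1.03 to -0.46). Cholesterol synthesis genes were lower in 5 of 21 and higher in none, with a median of -0.75 (-0.99 to -0.46), and Srebf2, the factor that switches them on, differed by -1.31 ± 0.21. The genes of cholesterol efflux and lipoproteins were higher in 10 of 18 and lower in 1, with a median of 1.28 (0.92 to 1.58). Abca1, the efflux pump, stood at 2.27 and was not above background in tuft marker- cells (at least 63.3-fold, log2 difference 3.12 by its other probe), and Apoe stood at 8.35 against 3.43. In the Lgr5+ pair the efflux median was the same 1.28, but that of synthesis was 0.06.

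The tuft marker sort was set beside the same sort within Lgr5+ cells, which shares no array with it. Genes 2-fold higher in both numbered 803. This is 27.1% of those higher in Lgr5- cells, where 10.4% of all genes were higher in Lgr5+ cells. It is 44.0% of those higher in Lgr5+ cells, where 16.5% of all genes were higher in Lgr5- cells. Genes 2-fold lower in both numbered 238, or 10.8% and 16.7%, near the 8.14% and 12.3% of all genes that were lower in the other pair. Opposite directions were shown by 331 of the 2959 genes higher in Lgr5- cells, which were lower in Lgr5+ cells, and by 115 of 2198 the other way round. Of all genes in the Lgr5+ pair, 8.14% were lower and 10.4% higher. Dclk1 differed by 3.93 and 3.49 in the 2 pairs and Trpm5 by 5.63 and 3.47, and Trpm5 in tuft marker- cells stood at -1.83 in the Lgr5- and 0.88 in the Lgr5+ population. The medians for oxidative phosphorylation were -0.99 and 0.16, for epithelial transcription factors -1.18 and 0.05, for junction genes -0.81 and 0.13, and for enterocyte genes 0.01 and 1.21. With 1 array a group these differences between pairs were not tested.

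**Figure D4:**
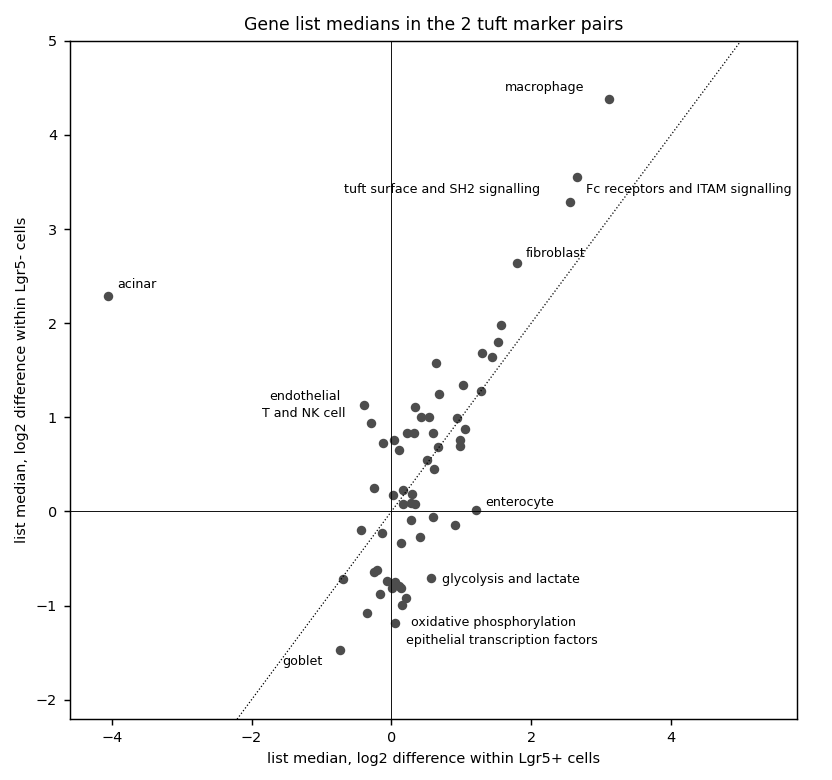
Median log2 difference, tuft marker+ minus tuft marker-, of each of 61 gene lists within Lgr5+ cells (x axis) and within Lgr5- cells (y axis); the dotted line marks equal values. The macrophage list is high in both pairs at 3.12 and 4.38, and the acinar list lies apart at -4.05 and 2.29.

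Pancreatic acinar enzyme genes went in opposite directions in the pairs. Within Lgr5- cells 11 of 12 were higher in tuft marker+ cells, with a median of 2.29 (1.85 to 2.59), and within Lgr5+ cells 11 of 12 were lower, with a median of -4.05. Amy2a5, a pancreatic amylase, stood at 6.08 in Lgr5- tuft marker+, 3.05 in Lgr5- tuft marker-, -2.72 in Lgr5+ tuft marker+ and 5.02 in Lgr5+ tuft marker- cells. Prss2, a trypsinogen, stood at 2.80, -0.49, not above background and 2.71 in the same order. The low value lay on the Lgr5+ tuft marker+ array, and the Lgr5- tuft marker- array lay between it and the others. These enzymes are made by the exocrine pancreas, and how much pancreatic RNA each sample held was not tested.

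**Figure D5:**
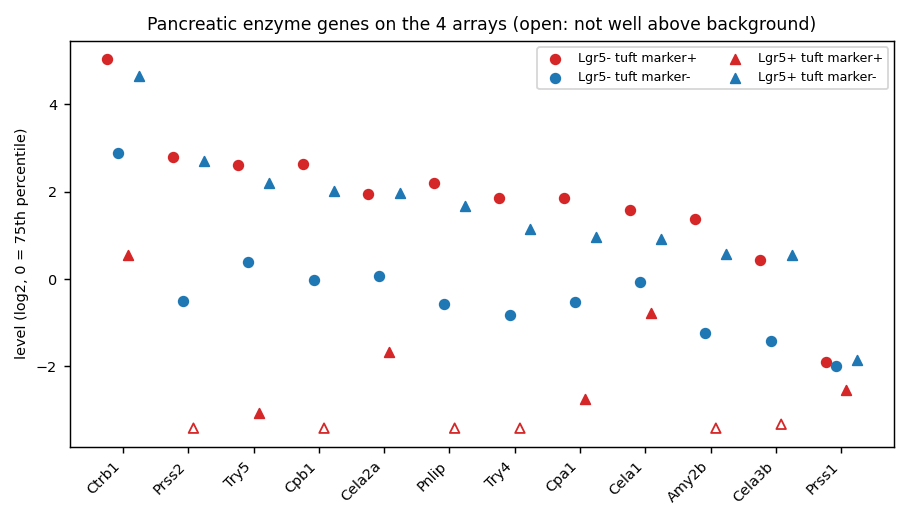
Levels of 12 pancreatic enzyme genes on the 4 arrays, as log2 intensity with the 75th percentile at 0; circles are Lgr5- cells, triangles Lgr5+ cells, red tuft marker+, blue tuft marker-, and open symbols are not well above background. For 11 genes the red circle and the blue triangle are high and the red triangle lowest, as for Cpb1 at 2.63, 2.01 and not above background, and Prss1 lies between -2.54 and -1.84 on all arrays.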

How the data were processed

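RNA of 4 sorted populations was measured, 1 array each. Per the file headers, the authors' deposited scanner files hold spot intensity processed by Agilent Feature Extraction 12.0.3.1 (background-subtracted gProcessedSignal) with detection flags; version 11.5.1.1 stands in the submitters' processing notes. The authors' deposited value table equals these intensities times a constant per array (11.9 and 9.08 for the Lgr5- arrays, all spots within 0.1%), with column medians of 253 to 365. The reason for this scaling is not stated there. The array grid is annotated on mm9, per the file headers.

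Control and outlier spots were left out, log2 intensity taken relative to the array's 75th percentile, spots of a probe averaged, and a floor set at the lowest signal well above background. A gene took the values of its brightest probe over the 4 arrays and counted as above background if any probe was; probes were named through RefSeq accessions: 32994 of 56605 probes had a gene name, and 23611 had none and entered no list. A gene was called at 2-fold. Scripts ran under Python 3.11.15, numpy 2.4.6, pandas 2.3.3, matplotlib 3.10.9 and R 4.3.3 with limma 3.58.1 (normexp with offset 50). The steps that give gene differences and 2-fold calls were tested on simulated data, and the list step was not. The simulated differences were put only into genes brighter than the 75th percentile of the array, so differences given as lower limits were not covered. Normexp used the median spot signal, because the files hold no mean signal column. With 1 array a group the Lgr5- pair leaves no residual degrees of freedom, so values stand without tests.

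Genes were named by a rule: the sort markers; the 10 highest and lowest differences and the 8 largest lower limits each way; in each list up to 4 members each way at 2-fold and the farthest the other way; and up to 10 genes each way that differed most between the pairs. Markers fixed for cell types, and other list members named for their role, were added with their values in view. A few genes that the rule names are not reported here. The members and the 61 lists (1262 entries, 1158 different genes with a probe) were chosen with earlier results of these data known. RefSeq promoters (GRCm38.p6) matched 14154 measured genes by symbol. 10 alternatives of processing were tried.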

Additional observations from a re-analysis of the deposited data

Results flagged for a closer look

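Several results had opposite signs in the tuft marker sort within Lgr5- cells and within Lgr5+ cells, with 1 array on each side, and none of these differences was tested. The median of the acinar list was 2.29 in the Lgr5- and -4.05 in the Lgr5+ pair. Single pancreatic genes with opposite signs included Amy2a5 (3.03 and -7.74), Try5 (2.21 and -5.25), Ctrb1 (2.15 and -4.10), Amy1 (2.53 and -3.63) and Cpa1 (2.38 and -3.72). Gm21637 differed by 2.74 and by -3.58, and St8sia2, a sialyltransferase, by 3.67 and -2.06; of these the -3.58 and both values of St8sia2 are the smallest sizes the floor allows. In the Lgr5- pair the other probes of Gm21637 and St8sia2 gave 1.45 and 0.89. The olfactory receptor gene Olfr521 differed by 2.19 and -3.35.

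The median of the glycolysis and lactate list was -0.71 in the Lgr5- and 0.57 in the Lgr5+ pair. Slc2a5, the fructose transporter of enterocytes, differed by -2.04 and 2.10.

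Probes without a gene name enter no list: of 15718 measured in the Lgr5- pair, 2718 were 2-fold higher (17.3%) and 1340 lower (8.53%), against 16.5% and 12.3% of named genes.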

How the results depend on the processing

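The 10 alternatives changed 1 choice each, except that the normexp setting also began from the median spot signal. Genes 2-fold higher and lower numbered 2959 and 2198, and 3435 were lower with arrays scaled to the median spot, 4475 higher and 1154 lower in the authors' deposited value table, and 949 and 785 in the normexp setting. Dclk1 differed by 3.69 with median scaling, 4.19 after quantile normalization, 4.22 in the authors' deposited table, 3.36 after normexp and 4.53 as the mean of its probes. Trpm5 differed by 5.40 with median scaling, 5.93 in the authors' table and 4.18 after normexp. Il17rb differed by 1.68 after normexp and by 4.82 with the looser detection flag or without a floor. The sign turned for Mmp16, at least 2.37 higher, to -0.17 with the looser flag or without a floor, and with the mean of all probes for Aurkb (-0.090), Ccng2 (-0.37) and Wipf1 (0.34). Of 298 named genes 2-fold apart, 294 kept their sign in every alternative that gave a value, as did all 45 lists with a median of 0.5 or more either way. The cause of these shifts was not tested. For the Lgr5- sort alone no paired analysis was possible, because each group had 1 array and the difference leaves no residual degrees of freedom. A fit of both pairs with Lgr5 as a block was possible but was not run. It would give the mean of the 2 sorts, a different quantity. No replicate could be left out. Signal near background limits the 2772 differences given as lower limits.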

Other observations

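Inflammatory and matrix gene lists held more genes 2-fold higher than the 16.5% of all genes. NF-kB response genes were 2-fold higher in 9 of 19 and lower in 1, with a median of 1.0; Cd83, Cxcl2 and Nfkbie were higher by 4.64 ± 0.27, 4.11 ± 0.22 and 3.17 ± 0.30, and Rela, a subunit of NF-kB itself, was lower at -1.15 ± 0.20 (-0.21 by its other probe). Interferon-induced genes were higher in 11 of 26 and lower in none, with a median of 0.70, led by Gbp3 (at least 15.1-fold), Ifit3 (3.57 ± 0.33) and Gbp2 (3.11 ± 0.24). In the Lgr5+ pair, where 10.4% of all genes were higher, 13 of 26 interferon-induced genes were higher and none lower, with a median of 0.99. Gbp2 was higher there by 3.21, whereas Ifit3 differed by -0.94. Collagen and basement membrane genes were higher in 12 of 25 and lower in 1 (Lama3, -1.15 ± 0.25, but 0.46 by its other probe), with a median of 1.0. Metalloproteinase genes were higher in 9 of 20, with Mmp13 and Mmp2 at least 10.3-fold and at least 6.18-fold. Of the NADPH oxidase genes, the phagocyte subunit Cybb was higher (5.49 ± 0.25) and the epithelial Nox1 and Noxo1 lower (-1.72 ± 0.30 and -1.14 ± 0.21).

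Lists of signals between cells and of stress were mixed, read against 16.5% of all genes higher and 12.3% lower. Among BMP and TGF-beta genes 6 of 24 were higher and 4 lower: the BMP antagonist Grem1 stood at -0.06 against -2.95, a difference of 2.89 ± 0.29, Tgfb1 was at least 5.64-fold higher, and the receptor Bmpr1a and the mediators Smad5 and Smad1 were lower at -1.51 ± 0.21, -1.51 ± 0.23 and -1.29 ± 0.23, with -0.88 and -0.67 by the other probes of Bmpr1a and Smad5. Among EGF ligands and receptors Epgn was higher at 2.08 ± 0.28 and Areg lower at -1.81 ± 0.20, with the receptors Erbb2 and Erbb3 at -1.36 ± 0.23 (-0.70 by its other probe) and -1.36 ± 0.21. Among Notch genes 6 of 18 were higher and 2 lower, with Notch2 at 1.54 ± 0.20, Lfng at 1.69 ± 0.30 (0.04 by its other probe), and Jag1 at -1.01 ± 0.25. RGS genes were higher in 8 of 16 and lower in none, with Rgs10 at 3.65 against -3.09 (6.73 ± 0.31, and 3.90 by its other probe) and Rgs1 at 5.76 against 0.19 (5.58 ± 0.21). Detoxification genes were lower in 9 of 23 (39.1%) and higher in 1, with the quinone reductase Nqo1 at -1.86 ± 0.21. Fetal-like and regenerative genes were higher in 7 of 15 (46.7%) and lower in 1, with a median of 0.76. Beside Spp1, also in the macrophage list, the higher genes included Il1rn (3.58 ± 0.22), Anxa3 (1.95 ± 0.22, and 0.78 by its other probe) and Clu (1.47 ± 0.22). Which cells gave this RNA was not tested. In the Lgr5+ pair 5 of 15 of the list were higher and none lower, with a median of 0.035. Immediate early and stress genes were higher in 7 of 24 and lower in 1, with the phosphatase gene Dusp1 at 2.11 ± 0.20 and Egr2 at 2.07 ± 0.20. Of the p53 targets 3 of 17 were higher (17.6%) and 2 lower (11.8%), shares near those of all genes, and of the unfolded protein response genes none of 24 were higher and 2 lower, the lowest being Ddit3 at -1.79 ± 0.21. Integrins were higher in 8 of 21 (38.1%) and lower in 3, with Itgb2, the leukocyte β2 chain, at 3.52 ± 0.20 and the epithelial Itga3 at -1.59 ± 0.20. Class I antigen presentation showed B2m at 1.15 ± 0.20 and Erap1 at -1.87 ± 0.36, and 3 of 16 genes higher (18.8%) with 1 lower, the first share near that of all genes.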
